A study of Mus musculus with 6 samples.

Results

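The T-box genes Tbx2, Tbx3, Tbx4 and Tbx5, the forkhead genes Foxf1 and Foxf2, and Tcf21, Meox2, Twist1 and Twist2 encode transcription factors of the lung mesenchyme, the connective and muscle tissue around the airway epithelium. These 10 of the 18193 genes named on the arrays were followed through every probe set whose symbol in the platform annotation was one of them, 20 of 45037 after array controls were left out. Signals were compared between fetal mouse lungs at stage E18.5 of genotype Nfibf/f, Dermo1-Cre and lungs of genotype Nfibf/f, with 3 animals and 1 Affymetrix array an animal in each group. Every animal was floxed at Nfib, which encodes nuclear factor I B, so the groups differ by label in the Cre alone. By design the Cre deletes floxed Nfib sequence, so the Cre and that deletion cannot be told apart here. Animals with the Cre and unfloxed Nfib were not analysed here. Dermo1 is the older name of Twist2, and Dermo1-Cre expresses Cre recombinase from that locus in mesenchymal cells, and whole-lung RNA also holds that of epithelial, endothelial and blood cells.

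In the mouse, Tbx4 and Tbx5 act in the mesenchyme of the lung bud and support branching through the growth factor gene Fgf10, while Tbx2 and Tbx3 are mainly repressors that keep early lung mesenchyme dividing. Foxf1 is a target of Hedgehog signals from the epithelium and acts in both mesenchyme and endothelium, and Foxf2 is its close relative. Tcf21, Twist1 and Twist2 are basic helix-loop-helix (bHLH) factors that bind DNA as dimers with E proteins, and Meox2 is a homeobox factor of mesoderm and vessels.

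None of the 10 genes passed the test, and for the brightest probe sets of Tbx2, Tbx4 and Foxf1 the interval of the difference lay within 1.27-fold either way. Probe sets were tested when their mean log2 signal over the 6 arrays reached 4.003, the 40th percentile, which kept 16 of the 20 and 9 of the 10 genes; the probe set of Twist1 and 3 further ones lay below it. A call was a limma adjusted p under 0.05 over all 27022 tested probe sets. Of the 16, 0 passed in limma, against 3.56% of all tested probe sets (1.41% higher and 2.16% lower in Cre-labelled lungs), and 2 had an unadjusted p under 0.05, against 19.5%. The smallest adjusted p of the 16 was 0.23. The groups did not overlap for 1 of the 16, against 26.1% of all, and 12 of the 16 had a higher mean in the Cre-labelled lungs, against 50.1% of all. The median size of the difference was 0.22 on the log2 scale over the 16 and 0.20 over all tested probe sets. The median SD within groups was 0.32 over the 16 and 0.21 over all, so the 16 were the noisier. Their lower shares therefore do not show that these genes were more stable than others. For 12 of the 16 the 95% interval of the difference lay inside 2-fold in both directions.

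**Figure D1:**
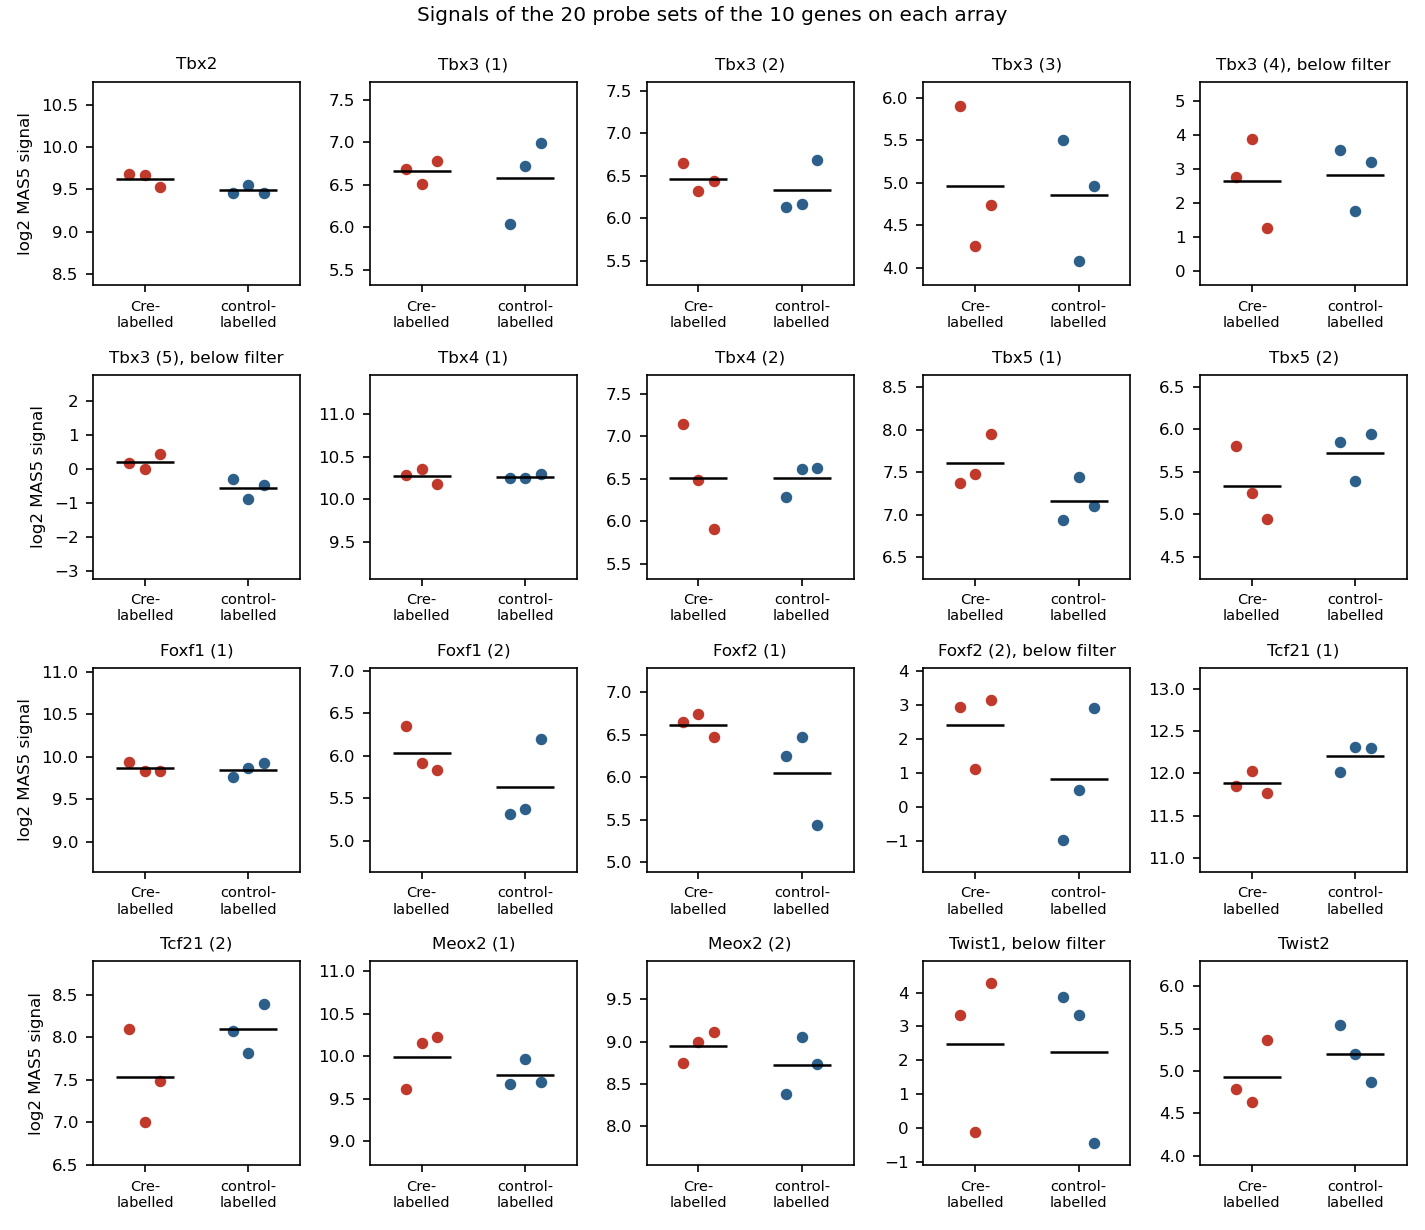
Log2 MAS5 signal (vertical axes) of all 20 probe sets on the 3 Cre-labelled and 3 control-labelled arrays, with a bar at each group mean; numbers in brackets order the probe sets of a gene by mean signal, and panels span 2.4 log2 units, or 6 for those below the filter. Groups overlap in 18 of the 20 panels; Foxf2 (1), and Tbx3 (5) below the filter, are higher on every Cre-labelled array.

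Some facts of the arrays bear on these values. Nfib itself was higher in Cre-labelled lungs, with log2 signals of 11.24, 11.16 and 11.49 against 10.24, 10.32 and 10.17 in control-labelled lungs for its brightest probe set (limma adjusted p = 0.0049; exact permutation p = 0.10, the smallest that 3 against 3 arrays allow). Of its 6 tested probe sets 5 rose, and the other (1438244_at) averaged 9.45 ± 0.22 in Cre-labelled and 9.55 ± 0.13 in control-labelled lungs (SD, n = 3 each; limma adjusted p = 0.71), with groups that overlapped. The positions of its probes relative to the deletion are not given in the sources used here, so Nfib does not check the labels, and every direction here rests on them; the groups are called Cre-labelled and control-labelled for that reason. Control-labelled replicate 1 stood apart in skeletal muscle genes: the 9 listed genes summed to 249.8, 248.7 and 318.6 linear signal units on the Cre-labelled arrays and to 3953, 532.0 and 295.2 on the control-labelled arrays. The 14 cardiac muscle genes summed to between 1507 and 3869 on Cre-labelled and between 2720 and 10095 on control-labelled arrays. Mesenchymal markers were well measured in both groups, with Col3a1 and Vim the brightest. None of the 9 passed, against 4.96% of all genes. In RNA of whole lung, fewer cells of a type and less RNA per cell cannot be told apart.

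Tbx4, a driver of lung bud outgrowth in the mouse, had nearly the same mean in both groups. Its brightest probe set (1456033_at) had log2 signals of 10.29, 10.36 and 10.18 in Cre-labelled lungs and 10.25, 10.25 and 10.30 in control-labelled lungs. The values overlapped, and the log2 difference was 0.01 ± 0.09 SE with a 95% interval of -0.21 to 0.22 (limma adjusted p = 0.97), or 0.867 to 1.17 as a fold. The dimmer Tbx4 probe set (1426321_at) averaged 6.51 ± 0.62 in Cre-labelled and 6.51 ± 0.20 in control-labelled lungs (SD, n = 3 each). Its Cre-labelled arrays spread widely, at 7.14, 6.49 and 5.91, on both sides of the control-labelled ones.

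Tbx5, the gene next to Tbx3 on the RefSeq assembly and also a heart gene, had probe sets that pointed in opposite directions. The brighter one (1425695_at) had log2 signals of 7.38, 7.48 and 7.95 in Cre-labelled lungs and 6.94, 7.44 and 7.11 in control-labelled lungs. Its log2 difference was 0.44 ± 0.18 SE, with an interval of 0.02 to 0.86 and an unadjusted limma p of 0.040, but it did not pass after adjustment (adjusted p = 0.23). Cre-labelled replicate 3 alone lay well above the rest, and without it the difference was 0.26. With the endothelial marker mean as a covariate the difference was 0.02. That mean does not overlap between the groups, so this fit cannot separate it from the group label. The dimmer probe set (1425694_at) had 5.80, 5.26 and 4.95 in Cre-labelled and 5.85, 5.39 and 5.94 in control-labelled lungs, so its difference was -0.39 ± 0.26 SE (limma adjusted p = 0.46). The mean of the 2 probe sets differed by 0.02 between the groups. The mean log2 signal of the 14 cardiac muscle genes was 5.37, 6.26 and 6.96 on the Cre-labelled arrays, the same order as the brighter Tbx5 probe set, and 8.40, 7.49 and 6.82 on the control-labelled arrays. Control-labelled replicate 1, the highest of the 6 for that list, was the lowest for the brighter Tbx5 probe set and the second highest for the dimmer one. Both Tbx5 probe sets kept their sign with the cardiac marker mean as a covariate. The part of cardiac RNA in the Tbx5 values was not tested.

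Tbx2, a repressor, was measured by 1 probe set (1422545_at), with log2 signals of 9.69, 9.67 and 9.53 in Cre-labelled lungs and 9.46, 9.55 and 9.46 in control-labelled lungs. The lowest Cre-labelled array lay just below the highest control-labelled one. The log2 difference was 0.14 ± 0.09 SE, with an interval of -0.07 to 0.35 (limma adjusted p = 0.47), which holds a rise of up to 1.27-fold and a fall to 0.950-fold. Tbx2 and Tbx4 are adjacent genes on the RefSeq assembly, and neither passed.

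Tbx3, the close relative of Tbx2, had 5 probe sets, of which 3 were tested. Their log2 differences were 0.07 ± 0.23, 0.14 ± 0.19 and 0.11 ± 0.47 (SE, from the brightest to the dimmest), and the smallest limma adjusted p was 0.75. The brightest (1437479_x_at) had log2 signals of 6.69, 6.51 and 6.78 in Cre-labelled lungs and 6.04, 6.72 and 6.998 in control-labelled lungs, so the Cre-labelled values lay within the control-labelled range. Of the 2 probe sets below the filter, 1 (1444594_at) had groups that did not overlap, at 0.18, 0.00 and 0.45 in Cre-labelled and -0.29, -0.88 and -0.46 in control-labelled lungs. Signals near 0 on this scale carry much noise, and with no filter this difference was 0.76 ± 0.78 SE (limma adjusted p = 0.74).

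**Figure D2:**
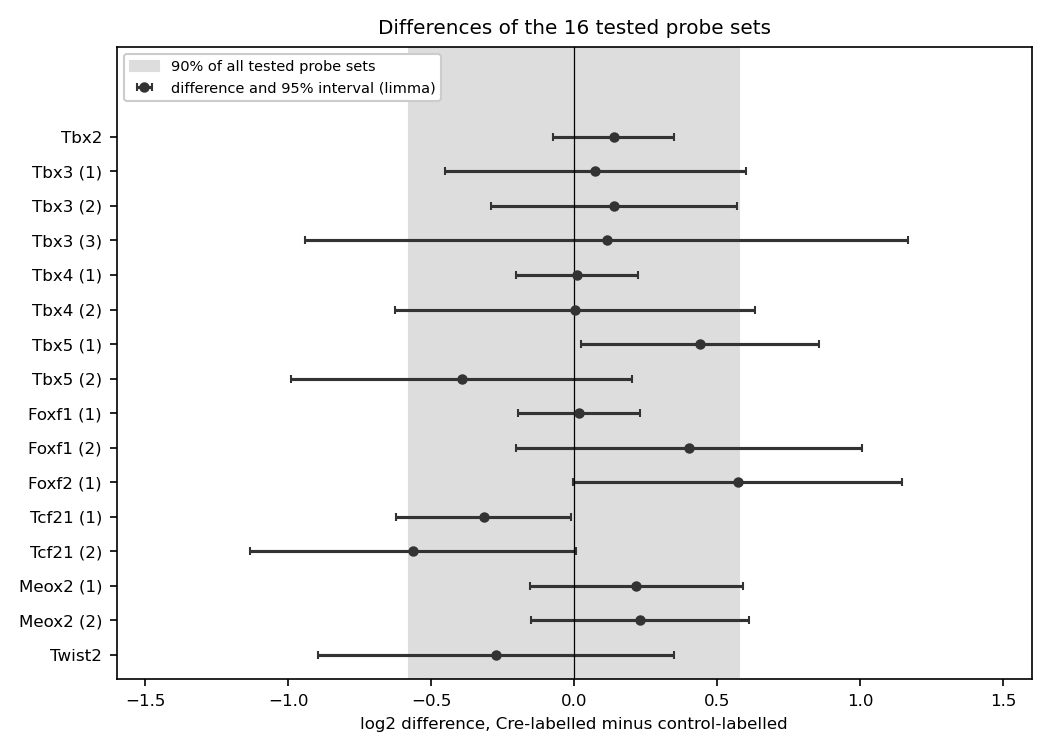
Log2 difference (horizontal axis) of the 16 tested probe sets, Cre-labelled minus control-labelled, with its 95% interval from limma; the grey band spans 0.58 either way, which holds 90% of all tested probe sets. The intervals of Tbx2, Tbx4 (1) and Foxf1 (1) are the narrowest, and those of Tbx5 (1) and Tcf21 (1) leave out 0 before adjustment.

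Foxf1, which acts in mesenchyme and endothelium downstream of Hedgehog signals, also had nearly equal means on its brightest probe set (1434939_at). Its log2 signals were 9.93, 9.83 and 9.83 in Cre-labelled lungs and 9.76, 9.86 and 9.92 in control-labelled lungs. The groups overlapped, and the log2 difference was 0.02 ± 0.09 SE with an interval of -0.20 to 0.23 (limma adjusted p = 0.95). The dimmer probe set (1423013_at) averaged 6.03 ± 0.28 in Cre-labelled and 5.63 ± 0.49 in control-labelled lungs (SD, n = 3 each), which differ by 0.40 ± 0.27 SE on the log2 scale (limma adjusted p = 0.46). Fendrr, the noncoding RNA gene transcribed away from Foxf1 from beside its start and chosen for that position, differed by -0.07 ± 0.09 SE (limma adjusted p = 0.73). The 10 endothelial marker genes summed to between 6655 and 8136 linear units on Cre-labelled and between 8946 and 9762 on control-labelled arrays. These sums did not overlap, although none of the 10 genes passed, against 4.96% of all genes. The part of this difference in the Foxf1 values was not tested.

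Foxf2, a mesenchymal forkhead factor, had the largest difference of the 16 (1418220_at). Its log2 signals were 6.65, 6.74 and 6.47 in Cre-labelled lungs and 6.25, 6.47 and 5.43 in control-labelled lungs. Every Cre-labelled array lay above the control-labelled ones, the closest pair by less than 0.01, and control-labelled replicate 3 stood far below the rest. The log2 difference was 0.57 ± 0.26 SE with an interval of -0.004 to 1.15 (limma adjusted p = 0.26; exact permutation p = 0.10, the smallest possible here). Without control-labelled replicate 3 it was 0.26 (limma adjusted p = 0.51). After 64 was added to the linear signals it was 0.30. The other Foxf2 probe set lay below the filter, at 2.41 ± 1.12 in Cre-labelled and 0.82 ± 1.96 in control-labelled lungs (SD, n = 3 each).

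Promoter sequences, of 250 bases before to 50 bases after the start in RefSeq (GRCm38.p6), were found for 6 of the 10 genes, Tbx4, Foxf2, Tcf21, Meox2, Twist1 and Twist2. The letters TTGGC, on either strand, the core of the motif bound by nuclear factor I proteins, occurred in 5 of the 6, all but Tcf21, and in 46.7% of 32851 promoters of that length. The whole palindrome, TTGGC followed after any 5 bases by its reverse complement, occurred in none of the 6 and in 0.0365% of all. The T-box motif GGTGTGA and the forkhead motif TGTTTAC, each on either strand, were in none of the 6, and in 3.98% and 3.65% of all promoters. The E-box CANNTG, bound by bHLH dimers, was in 3 of the 6 (Tbx4, Foxf2 and Meox2) and in 72.3% of all. CANNTG and TTGGC can share bases and were counted separately. A match describes letters only. The promoter of Foxf2 (chr13:31625566-31625865, plus strand) is shown as that of the gene whose brightest probe set was furthest above 0, and Tcf21 (chr10:22820094-22820393, minus strand) as that furthest below 0; capitals mark TTGGC or its reverse complement GCCAA, which Tcf21 lacks. Both are given from the 5′ to the 3′ end of the gene's strand.
Foxf2: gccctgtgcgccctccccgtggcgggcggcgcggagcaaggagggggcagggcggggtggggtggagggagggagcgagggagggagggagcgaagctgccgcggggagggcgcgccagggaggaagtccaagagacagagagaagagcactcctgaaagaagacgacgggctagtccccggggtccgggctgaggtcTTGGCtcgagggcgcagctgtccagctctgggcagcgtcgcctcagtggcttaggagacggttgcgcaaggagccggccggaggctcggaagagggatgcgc
Tcf21: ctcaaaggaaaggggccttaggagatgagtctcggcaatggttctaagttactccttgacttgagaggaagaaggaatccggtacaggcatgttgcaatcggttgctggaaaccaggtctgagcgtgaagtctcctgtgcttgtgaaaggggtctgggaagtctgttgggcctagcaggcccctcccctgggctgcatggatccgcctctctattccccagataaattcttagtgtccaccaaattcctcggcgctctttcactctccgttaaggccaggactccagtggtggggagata

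Tcf21, which marks lipid-storing fibroblast precursors and is needed for alveolar development in the mouse, was lower on average on both of its probe sets, short of the threshold. The brightest (1417447_at) had log2 signals of 11.86, 12.03 and 11.77 in Cre-labelled lungs and 12.01, 12.31 and 12.29 in control-labelled lungs. Only Cre-labelled replicate 2 and control-labelled replicate 1 crossed. The log2 difference was -0.32 ± 0.14 SE with an interval of -0.62 to -0.01 and an unadjusted limma p of 0.044 (adjusted p = 0.24). The dimmer probe set (1458887_at) had 8.10, 7.002 and 7.49 in Cre-labelled and 8.07, 7.82 and 8.39 in control-labelled lungs, and the difference was -0.57 ± 0.25 SE (limma adjusted p = 0.26). This value rested on single arrays: it was -0.85 without Cre-labelled replicate 1 (adjusted p = 0.088) and -0.30 without Cre-labelled replicate 2 (adjusted p = 0.52). Both probe sets kept their sign in all 17 alternative fits. The brightest was -0.13 with the endothelial marker mean as a covariate, a fit that cannot separate that mean from the group label.

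Meox2, a homeobox factor of mesoderm, vessels and limb muscle, was higher on average on both probe sets by similar amounts. The brightest (1424234_s_at) had log2 signals of 9.61, 10.15 and 10.23 in Cre-labelled lungs and 9.67, 9.96 and 9.70 in control-labelled lungs. Cre-labelled replicate 1 was the lowest of all 6, and the log2 difference was 0.22 ± 0.17 SE with an interval of -0.16 to 0.59 (limma adjusted p = 0.53). The other (1424233_at) averaged 8.95 ± 0.19 in Cre-labelled and 8.72 ± 0.34 in control-labelled lungs (SD, n = 3 each; limma adjusted p = 0.50). On control-labelled replicate 1, where skeletal muscle genes were highest, neither Meox2 probe set was above the other control-labelled arrays.

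Twist2 is the locus in which the Cre sits, so an animal with the Cre has an altered copy of this gene. Its single probe set (1448925_at) had log2 signals of 4.79, 4.64 and 5.37 in Cre-labelled lungs and 5.54, 5.20 and 4.87 in control-labelled lungs. Cre-labelled replicate 3 lay above 2 of the 3 control-labelled arrays. The log2 difference was -0.27 ± 0.28 SE, and the interval of -0.90 to 0.35 reaches from 0.537-fold to 1.27-fold (limma adjusted p = 0.65; exact permutation p = 0.40). The signal was about 1 log2 unit above the filter, so the Cre label could not be read from it. The Twist2 promoter (chr1:91801211-91801510, plus strand) is shown because the Cre is expressed from this locus; capitals again mark TTGGC or its reverse complement.
Twist2: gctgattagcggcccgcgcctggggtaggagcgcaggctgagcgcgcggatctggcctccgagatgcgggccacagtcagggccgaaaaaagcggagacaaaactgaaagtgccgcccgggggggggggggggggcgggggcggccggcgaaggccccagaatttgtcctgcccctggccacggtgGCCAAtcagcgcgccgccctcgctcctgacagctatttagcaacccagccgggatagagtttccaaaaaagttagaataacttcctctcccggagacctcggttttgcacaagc

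Twist1, the bHLH relative of Twist2 that represses differentiation in mesoderm, was not measured well enough to compare. Its only probe set (1418733_at) had log2 signals of 3.33, -0.12 and 4.27 in Cre-labelled lungs and 3.88, 3.33 and -0.43 in control-labelled lungs. Each group held an array near or below 0, and with no filter the interval of the difference ran from -2.76 to 3.23. The other 3 probe sets below the filter belonged to Tbx3 and Foxf2.

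The dimer partners of the bHLH factors were measured well. All 7 E protein and Id genes were tested, 5 had a higher mean in Cre-labelled lungs and none passed; 2 had an unadjusted limma p under 0.05. Among all genes, each counted by its brightest probe set, 4.96% passed and 48.5% had a higher mean. Of all 12826, 3022 had an unadjusted limma p under 0.05. The E protein gene Tcf12 differed by 0.46 ± 0.11 SE (limma adjusted p = 0.058) and Id2, whose protein blocks E protein dimers, by 0.28 ± 0.13 SE (adjusted p = 0.30). None of the 8 tested genes of other mesodermal bHLH and Meox factors passed, and none had an unadjusted p under 0.05; Tal1 and Lyl1, factors of blood and endothelium, differed by -0.05 ± 0.11 and 0.06 ± 0.16 SE.

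The wider T-box and forkhead families held 1 call. Of 6 other T-box genes tested none passed in limma, against 4.96% of all genes. An unadjusted limma p under 0.05 was found for 2 of the 6, and for 3022 of all 12826 genes. A lower mean was found for 5, with a median log2 difference of -0.54 against -0.01 over all genes. Several were dim, such as Tbx19 and Tbx18 with mean log2 signals of 4.11 and 4.37. Only 1 of the 6 stayed tested with a filter at the 60th percentile, and with an offset of 64 the median was -0.20. Mga differed by 0.00 ± 0.10 SE and Tbx1 by -0.44 ± 0.19 SE (limma adjusted p = 0.25). Tbx20, a heart gene picked after its values were seen, had log2 signals of 3.92, 4.26 and 5.83 in Cre-labelled and 6.42, 5.87 and 4.65 in control-labelled lungs, where the same array, control-labelled replicate 1, was highest as for the cardiac list; the part of cardiac RNA in this gene was not tested. Of 22 other forkhead genes Foxp2, a factor of distal lung epithelium, rose (0.55 ± 0.11 SE, limma adjusted p = 0.035), and it passed in none of the 6 fits without 1 array. Foxo3 differed by -0.41 ± 0.19 SE (adjusted p = 0.28).

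Protein-coding genes within 2 places of a member on the RefSeq assembly, a set chosen by position after the arrays were first analysed, held no call either. There were 32, of which 23 were tested. In limma 0 passed, against 4.96% of all genes, and the smallest adjusted p was 0.13. An unadjusted limma p under 0.05 was found for 3, and for 3022 of all 12826 genes. The groups did not overlap for 6 that were lower and 3 that were higher in Cre-labelled lungs. Over all genes these counts were 2111 and 1962. The median log2 difference of the flanking genes was -0.13, against -0.01 over all genes. Foxq1, the forkhead gene on one side of Foxf2, had 5.56 ± 0.07 in Cre-labelled and 6.05 ± 0.09 in control-labelled lungs (SD, n = 3 each; limma adjusted p = 0.14), opposite in sign to Foxf2. Foxc2, which lies near Foxf1, differed by -0.61 ± 0.28 SE (adjusted p = 0.27).

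Other lung mesenchyme factors did hold calls. Of 26 tested genes, 4 rose, none fell and 22 did not pass, against 4.96% of all genes called. The list was chosen with earlier results of these data known, so its share of calls is not an independent result. The median difference was 0.34 on the log2 scale, and 0.16 with an offset of 64. A higher mean was found for 23 of the 26, the same number under quantile normalization, scaling to a common median and that offset. For the 9 tested members the median was 0.07 (0.03 with the offset of 64), with 7 of 9 higher. The 2 lists were not tested against each other. Gli3, a Hedgehog effector, had log2 signals of 8.64, 8.32 and 8.61 in Cre-labelled lungs and 7.50, 7.61 and 7.78 in control-labelled lungs (difference 0.89 ± 0.13 SE, limma adjusted p = 0.0095). All 3 Cre-labelled arrays lay above all 3 control-labelled ones. Hoxb5, a homeobox gene of lung mesenchyme, rose by 0.95 ± 0.14 SE (adjusted p = 0.012), and Lef1, an effector of Wnt signals, by 1.06 ± 0.21 SE (adjusted p = 0.030). Snai2 rose by 0.49 ± 0.11 SE (adjusted p = 0.041), and Zeb2 differed by 0.50 ± 0.13 SE (adjusted p = 0.074). Gli3 and Hoxb5 passed in all 6 fits without 1 array, Lef1 in 1 and Snai2 in none, so that 2 or 3 genes of the list were called in each of these fits.

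Signals exchanged between mesenchyme and epithelium moved in both directions. Of 17 tested genes 2 rose, 2 fell and 13 did not pass, against 4.96% of all genes called. Their median difference was -0.10 on the log2 scale. These genes too were listed with earlier results of these data known. Rspo2, which amplifies Wnt signals, had log2 signals of 6.86, 7.14 and 7.01 in Cre-labelled lungs and 5.37, 5.79 and 5.59 in control-labelled lungs (difference 1.42 ± 0.17 SE, limma adjusted p = 0.0056). Wnt2, a ligand made by lung mesenchyme, had 10.18, 10.15 and 10.21 in Cre-labelled and 9.51, 9.55 and 9.53 in control-labelled lungs (0.65 ± 0.09 SE, adjusted p = 0.0085). Both genes separated the groups on every array and passed in all 6 fits without 1 array. Hhip, which binds Hedgehog ligands, fell by 0.44 on the log2 scale (adjusted p = 0.045) and Spry1, a brake on fibroblast growth factor signals, by 0.74 (adjusted p = 0.036); Hhip passed in none and Spry1 in 1 of the 6 fits. Fgf10, the target of Tbx4 and Tbx5 in the lung bud, averaged 5.21 ± 0.33 in Cre-labelled and 4.86 ± 0.25 in control-labelled lungs (SD, n = 3 each; limma adjusted p = 0.49). The Hedgehog ligand gene Shh differed by -0.42 ± 0.12 SE (adjusted p = 0.081) and its receptor gene Ptch1 by 0.27 ± 0.11 SE (adjusted p = 0.21).

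**Figure D3:**
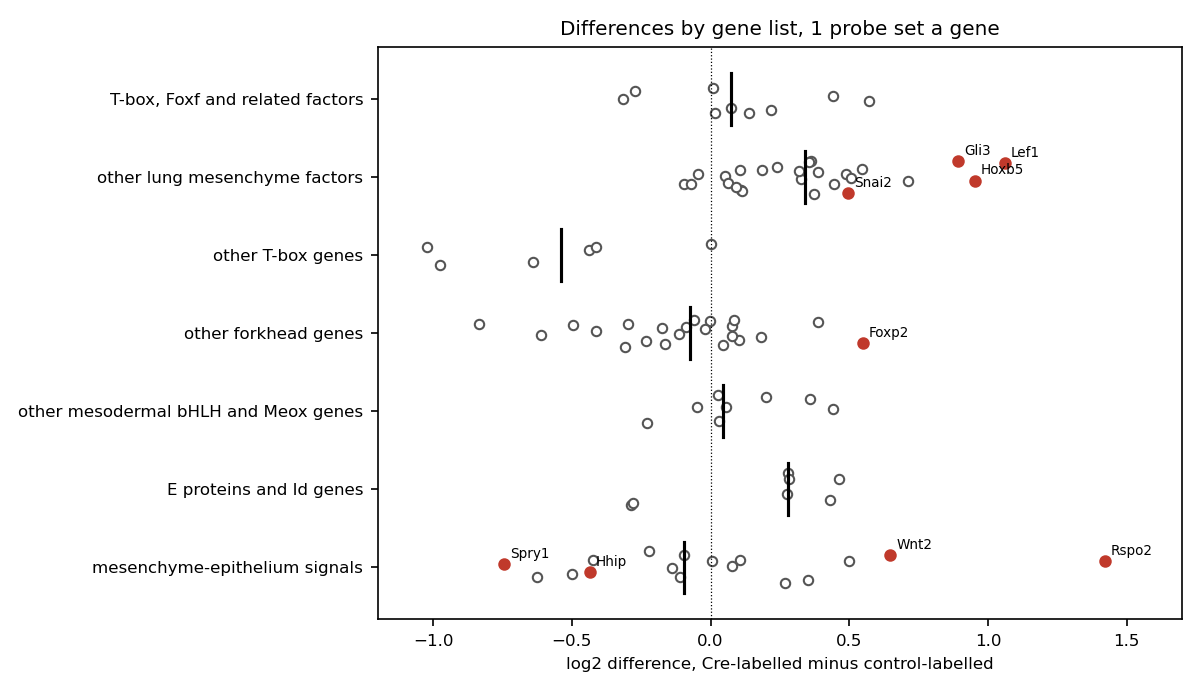
Log2 difference, Cre-labelled minus control-labelled (horizontal axis), of each tested gene in 7 lists, by its brightest probe set; red filled points passed a limma adjusted p of 0.05 and are named, open points did not, and bars mark list medians. None of the 9 genes of the top row passed and 4 of the 26 other lung mesenchyme factors rose, against 4.96% of all genes called. The lists differ in size, were chosen with earlier results known and were not tested against each other.

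Markers of other cell types moved beside these values. Over all 12826 tested genes, 4.96% passed and 6607 had a lower mean in Cre-labelled lungs. All 14 cardiac genes had a lower mean in Cre-labelled lungs (median log2 difference -1.14) and 1 fell, the myosin gene Myh7; Myl7 and Myl4, the brightest, differed by -1.07 ± 0.43 and -1.04 ± 0.48 SE. Of 9 skeletal muscle genes 4 were tested, Ckm and Mylpf the brightest, and all 4 were lower without passing. The mesothelial marker genes Msln and Krt19 fell, Krt19 being also in the epithelial list, and the macrophage and type II cell gene Lyz2 fell in the immune list. Of the 6 fits without 1 array, Msln passed in all, Lyz2 in 3, Myh7 in 2 and Krt19 in 1 (without Cre-labelled replicate 2). None of the 10 endothelial, 9 mesenchymal or 3 tested cartilage genes passed; the brightest were Emcn and Esam, Col3a1 and Vim, and Col9a1 and Col2a1. Sftpc and Cdh1, the brightest epithelial genes, and Csf1r did not pass. Lower means in Cre-labelled lungs were found for 9 of 10 endothelial genes (median log2 difference -0.23) and 7 of 8 epithelial genes (median -0.34). The same held for 5 of 6 mesothelial and 5 of 6 immune genes, with 1 gene of each of these 4 lists higher. Of the 9 mesenchymal genes 5 were higher and 4 lower. The part of these cell types in the members' differences was not tested.

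**Figure D4:**
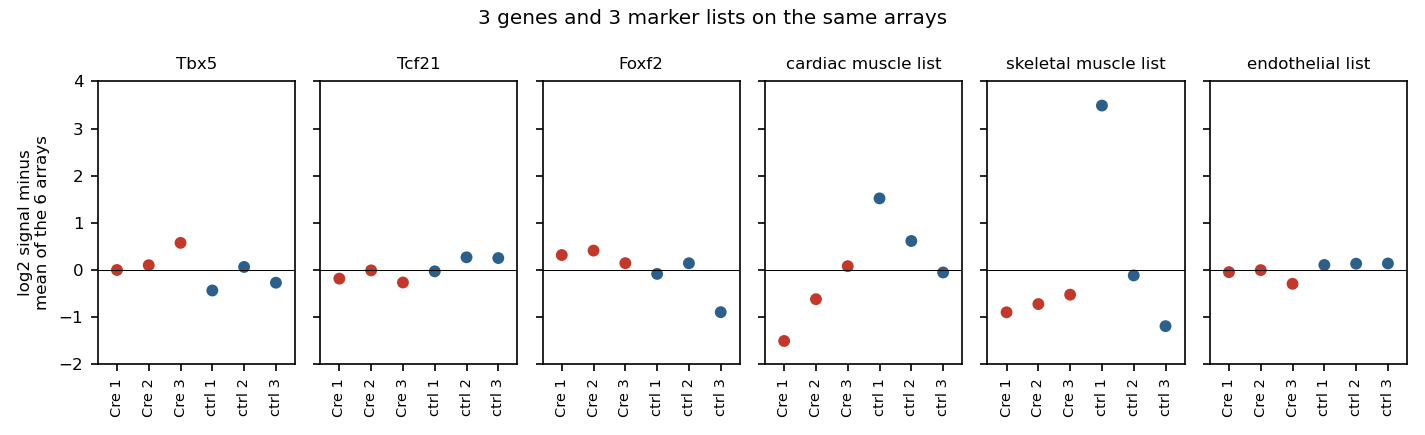
Log2 signal minus the mean of the 6 arrays (vertical axis) on each Cre-labelled (red) and control-labelled (blue, ctrl) array, for the brightest probe sets of Tbx5, Tcf21 and Foxf2 and for the mean of 3 marker lists. Control-labelled replicate 1 is the highest array for both muscle lists and the lowest for Tbx5; the endothelial list mean ran from 9.02 to 9.31 on Cre-labelled and from 9.42 to 9.45 on control-labelled arrays.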

How the data were processed

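Per the labels' protocols, biotin-labelled cRNA from 6 fetal lungs was hybridised to Affymetrix arrays. The authors deposited log2 signals, made with MAS5 and affy per the submitters' processing notes, which give no versions. Raised to the power of 2, the values had a mean of 150.04 to 150.05 on every array after trimming, and 4.93% to 6.50% of an array's values lay below 0. What else was done was not given in the sources used here. In all, 64 Affymetrix controls were left out, and values were used without an offset. Of the other 45037 probe sets, 34945 had 1 gene symbol; the rest, with no symbol or more than 1, entered the fit unnamed.

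Probe sets with a mean at or above the 40th percentile entered the limma package (version 3.58.1, R 4.3.3), where lmFit without covariates and a two-sided eBayes with a trend on intensity were used, with Benjamini-Hochberg adjustment over 27022 probe sets. Each test had 4 residual degrees of freedom plus 5.32 from the prior. The script was tested on simulated data with known changes. Lists were counted by each gene's brightest probe set. The text names every member, and of each list the called genes and the 2 brightest; no member passed, so none was matched to genes of like pattern. The members and lists were chosen with earlier results of these data known. Single values were compared by an exact permutation test over the 6 arrays. The number of arrays limits the precision. Sequences are RefSeq's (GRCm38.p6), and the RefSeq gene table served for names and gene order. Alternatives were quantile normalization, scaling to one median, adding 16 or 64 to linear signals, filtering at the 60th percentile or not at all, no intensity trend, array weights, a replicate block, covariates for the cardiac and endothelial lists, each array left out, and averaging the probe sets of a gene. Python 3.11.15 and matplotlib 3.10.9 drew the figures.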

Additional observations from a re-analysis of the deposited data

How the results depend on the processing

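Over the 17 alternative fits no probe set of the 10 genes passed the threshold (smallest limma adjusted p 0.088). In each, 0 to 4 had an unadjusted limma p under 0.05. With no filter these were 4 of 20, against 6305 of 45037 probe sets in all. Of 268 alternative values of the 16 tested probe sets, 248 kept their sign, and 6 probe sets kept it in every fit. The sign turned with the cardiac list as a covariate for the 3 Tbx3 probe sets (-0.32, -0.19 and -0.14), both Tbx4 probe sets (-0.060 and -0.69), both Foxf1 probe sets (-0.10 and -0.19) and Twist2 (0.26), and with the endothelial list for the brightest Tbx3 (-0.020), the dimmer Tbx5 (0.042) and the brightest Meox2 (-0.017) probe set; the cause was not tested. In fits without 1 array it turned for differences close to 0: the brightest Tbx3 probe set ranged between -0.20 (without control-labelled replicate 1) and 0.28, the dimmest tested one between -0.36 (without Cre-labelled replicate 1) and 0.47, the brightest Tbx4 between -0.032 and 0.057, the dimmer Tbx4 between -0.31 and 0.30, and the brightest Foxf1 between -0.029 and 0.055.

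The count of called probe sets, 963, was 308 to 499 without 1 array (without control-labelled replicate 3 and without Cre-labelled replicate 2), 171 without an intensity trend, 47 with the cardiac list as a covariate and 0 in limma with the endothelial list, with 2713 at an unadjusted p under 0.05; that list's mean does not overlap between the groups, and the cause of the drop was not tested. Genes called in the lists of other mesenchyme factors and of signals, 4 each, were 0 under both covariates and 1 each without a trend.

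Whether the shared replicate numbers pair the arrays was not settled. Deviations of same-numbered arrays correlated at -0.01, 0.20 and 0.14 for replicates 1, 2 and 3. Of the 6 arrays, 3 correlated best with their own number. With the replicate block 1309 probe sets and no probe set of the 10 genes passed in limma. Of the 10 genes' probe sets, 4 had an unadjusted limma p under 0.05 with the block. Without the block these were 2 of 16, against 19.5% of all tested probe sets.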
